A study of Mus musculus with 4 samples.

Results

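Transcripts of 9 proteins of calcium transport were measured in paced and in spontaneously beating atrial muscle cells. The proteins are the sarcoplasmic and endoplasmic reticulum calcium pumps (Atp2a1, Atp2a2 and Atp2a3), the plasma membrane calcium pumps (Atp2b1, Atp2b2 and Atp2b4), the sodium-calcium exchanger (Slc8a1), and the small membrane proteins phospholamban (Pln) and sarcolipin (Sln), which bind the reticulum pump and restrain it. The members were all probe sets annotated to exactly 1 gene symbol among these 9, which gave 25 probe sets of 9 genes, out of 18193 genes with such a probe set. A probe set is a group of short probes on an Affymetrix array that together measure a transcript.

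The cells were HL-1, a mouse line that came from an atrial tumour and keeps contracting in culture. Cells of the stimulated group received electrical pacing for 24 h at a rate of 300 beats per minute, which the labels put at about 1.5 to 2 times the rate of the controls (2 arrays). Control cells contracted spontaneously without stimulation (2 arrays). The labels describe loading with a calcium dye, Xrod-1, to follow calcium release for the control cells only, and do not say whether cells taken for RNA were loaded. All cells were grown on coated coverslips in the same medium to confluence, given as typically at least 90% at 96 h, and no group was paced at the control rate, so that electrical stimulation and faster rate cannot be told apart. The labels number the stimulated arrays as experiments 1 and 2, the control arrays were numbered in accession order, and no label ties the arrays of a group to separate cultures, so the p-values measure only the spread between these arrays, which may be technical.

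In each heartbeat calcium enters the cell, triggers release from the sarcoplasmic reticulum and is then cleared. The reticulum pump returns most of it to the store, the exchanger moves most of the remainder out of the cell in return for sodium, and the plasma membrane pumps carry a small share. Phospholamban slows the pump until it is phosphorylated, and sarcolipin, which in the heart is mainly an atrial protein, acts on the pump in a similar way.

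None of the member probe sets passed the test between stimulated and control cells (limma, Benjamini-Hochberg adjusted p under 0.05), against 3.85% of all 27022 probe sets tested (2.46% higher and 1.38% lower in stimulated cells). The 8 nearest, with adjusted p between 0.0691 and 0.128, were the 3 probe sets of Pln, 3 of the 6 of the pump gene Atp2a2, 1 of the exchanger gene Slc8a1 and 1 of Sln, and all 8 estimates were below control. Every Pln probe set read 2.40- to 2.66-fold lower on the stimulated arrays, Sln 3.44-fold lower on its only tested probe set, and Slc8a1 2.27-fold lower on 1425817_a_at, the only one of its 3 tested probe sets on which the groups did not overlap. For the other pumps the estimates lay between -0.46 and 0.11 on the log2 scale.

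Promoter windows are shown for the genes with the lower readings that the sequence table held, Pln and Slc8a1, and for Atp2a3, whose brightest probe set read the same in both groups. Each window runs from 250 bases before to 50 bases after a start site in RefSeq (mouse build GRCm38.p6), on the strand of the gene. The table held windows for 7 of the 9 genes. Capitals mark the letters GATAA (core of the site of GATA factors), GGGCGG (the GC box) or CATTCC (the M-CAT element of muscle genes). Both strands were searched, so that the reverse complement of a motif is in capitals too, and some GC boxes of the Atp2a3 window overlap by 1 base.
Pln, chr10:53337436-53337735, plus strand: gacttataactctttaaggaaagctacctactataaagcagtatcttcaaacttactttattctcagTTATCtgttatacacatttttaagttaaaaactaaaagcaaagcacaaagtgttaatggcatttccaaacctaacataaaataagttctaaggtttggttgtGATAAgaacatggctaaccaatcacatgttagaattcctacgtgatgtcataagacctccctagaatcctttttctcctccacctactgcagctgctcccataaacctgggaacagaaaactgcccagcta
Slc8a1, chr17:81738338-81738637, minus strand: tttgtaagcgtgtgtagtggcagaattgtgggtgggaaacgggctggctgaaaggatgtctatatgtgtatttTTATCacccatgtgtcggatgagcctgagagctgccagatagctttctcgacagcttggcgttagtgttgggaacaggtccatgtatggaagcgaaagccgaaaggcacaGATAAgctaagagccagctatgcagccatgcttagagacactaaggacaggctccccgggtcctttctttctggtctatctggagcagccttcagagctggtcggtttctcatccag
Atp2a3, chr11:72960919-72961218, plus strand: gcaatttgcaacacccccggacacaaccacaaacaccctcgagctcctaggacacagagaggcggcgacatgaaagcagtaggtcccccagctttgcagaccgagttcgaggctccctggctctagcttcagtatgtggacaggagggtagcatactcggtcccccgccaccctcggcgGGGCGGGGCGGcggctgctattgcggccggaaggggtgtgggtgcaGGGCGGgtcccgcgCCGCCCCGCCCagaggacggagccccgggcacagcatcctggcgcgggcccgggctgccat

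The Pln and Slc8a1 windows each held 2 copies of GATAA and 0 of the GC box, and were 36.0% and 50.7% G or C. Atp2a3 held 0 copies of GATAA, 5 GC boxes and 68.3% G or C. GATAA was not particular to the lower genes: the Atp2b4 window also held 2 copies, and 25.4% of all 32851 windows of this length held at least 1, against 35.7% for the GC box and 14.7% for CATTCC. Lack of the GC box was not particular to the lower genes either. The windows of Atp2a1 and Atp2b4 held 0, and these genes differed by -0.028 and -0.053. Atp2a3 itself differed by -0.45 on its other probe set. Matches describe letters only.

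Values below are RMA expression values on the log2 scale, and differences are stimulated minus control on that scale, with the standard error (SE) and 95% interval of the fit. Only probe sets whose mean over the 4 arrays was at least 4.39, the 40th percentile over the whole table, were tested. Of the 25 member probe sets 20 were tested, which represented 8 of the 9 genes. The other 5 were the 3 of Atp2b2, 1 of Slc8a1 and 1 of Sln.

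The identity of the cells was checked on marker lists. All 8 atrial muscle genes lay above the filter, with the atrial myosin light chain Myl7 at 13.45 and 13.72 on the stimulated arrays and 13.85 and 13.84 on the control arrays. Of 3 ventricular genes Myh7 and Irx4 lay below it, while Myl2, the ventricular myosin light chain, lay above it, at 8.83 and 9.45 on the stimulated arrays and 9.72 and 9.86 on the controls. Of 6 skeletal muscle genes 5 were tested, of 6 fibroblast genes 4 and of 4 smooth muscle genes 3. Of 4 endothelial genes 1 was tested, of 4 leukocyte genes 2 and of 4 nerve genes 3. Readings of the tested genes ranged widely. Over the 4 arrays the smooth muscle genes read 13.57 to 13.74 (Acta2), 11.49 to 12.91 (Tagln) and 10.18 to 11.15 (Cnn1). The skeletal muscle gene Myl1 read 11.49 to 12.53. The fibroblast genes Dcn, Pdgfra and Postn stayed between 4.38 and 4.77, close to the filter level. Among the marker genes tested Nppa and Cd68 rose, Gja5 and Myl1 fell, and the remaining ones did not pass. Cd68, a lysosomal protein of macrophages, read 6.34 and 6.59 on the stimulated arrays and 4.07 and 4.70 on the controls. Its control mean lay just below the filter level, so that Cd68 was tested only through its stimulated readings. The leukocyte genes Ptprc, at 3.04 to 3.51 on the 4 arrays, and Itgam lay below the filter.

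Phospholamban, the main regulator of the cardiac reticulum pump, was read by 3 probe sets, all tested. Probe set 1450952_at, the brightest, read 9.93 and 11.05 on the stimulated arrays and 11.94 and 11.76 on the control arrays, a difference of -1.36 ± 0.35 (SE, interval -2.22 to -0.50, adjusted p = 0.0883). Probe set 1423359_at read 8.91 and 9.93 on the stimulated arrays, against 10.89 and 10.76 on the controls, which differed by -1.41 ± 0.32 (interval -2.20 to -0.63, adjusted p = 0.0691). On 1460332_at the stimulated arrays read 8.99 and 10.18 and the controls 10.80 and 10.88, a difference of -1.26 ± 0.37 (interval -2.16 to -0.37, adjusted p = 0.11). On each of them both stimulated arrays lay below both controls, and stimulated 1 lay more than 1 unit below stimulated 2 while the controls nearly coincided. All 3 were designed on 1 sequence record, so they are repeated readings of 1 transcript and not independent support.

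Which stimulated array entered decided the size and the call for Pln. Without stimulated 2 the differences were -1.93, -1.92 and -1.86 and all 3 passed (adjusted p = 0.0499, 0.0489 and 0.0489), in a fit that takes the lone stimulated array to vary like the controls, where 0.0888% of all probe sets tested fell. With 1 probe set per gene Pln passed in that fit as well, where 0.314% of all genes fell. Without stimulated 1 they were -0.80, -0.90 and -0.67, and none passed (adjusted p = 0.13, 0.11 and 0.151). Stimulated 1 was also the lowest array for atrial muscle genes together. The summed level of the 8 atrial markers (log2 of the sum) was 15.62 on stimulated 1 and 15.86 on stimulated 2. On the controls it was 15.90 and 15.88. That sum holds Nppa, which rose, at 12.84 and 12.81 on the stimulated arrays and 10.69 and 10.96 on the controls. Of the 8 markers 7 had an estimate below 0. For 6 both stimulated arrays lay below both controls, against 27.7% of all genes tested. Myh6, the atrial myosin heavy chain, read 11.25 and 12.19 on the stimulated arrays and 12.70 and 12.79 on the controls. The part of these markers in the Pln reading was not tested. In whole cultures, fewer cells of a type and less RNA per cell cannot be told apart.

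Sarcolipin was measured by 1 tested probe set, 1420884_at. It read 4.94 and 6.46 on the stimulated arrays and 7.06 and 7.91 on the control arrays, a difference of -1.78 ± 0.52 (interval -3.05 to -0.52, adjusted p = 0.111). The groups did not overlap, but the SD within them was 1.07 in stimulated and 0.61 in control cells (n = 2 each), and stimulated 1 came near the filter level. Leaving out stimulated 1 gave -1.02 and leaving out stimulated 2 gave -2.54, neither of which passed. The other Sln probe set, 1420883_at, stood at 3.78 and 3.78 on the stimulated arrays and 3.83 and 3.89 on the controls, near the bottom of the scale on all 4 arrays.

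**Figure D1:**
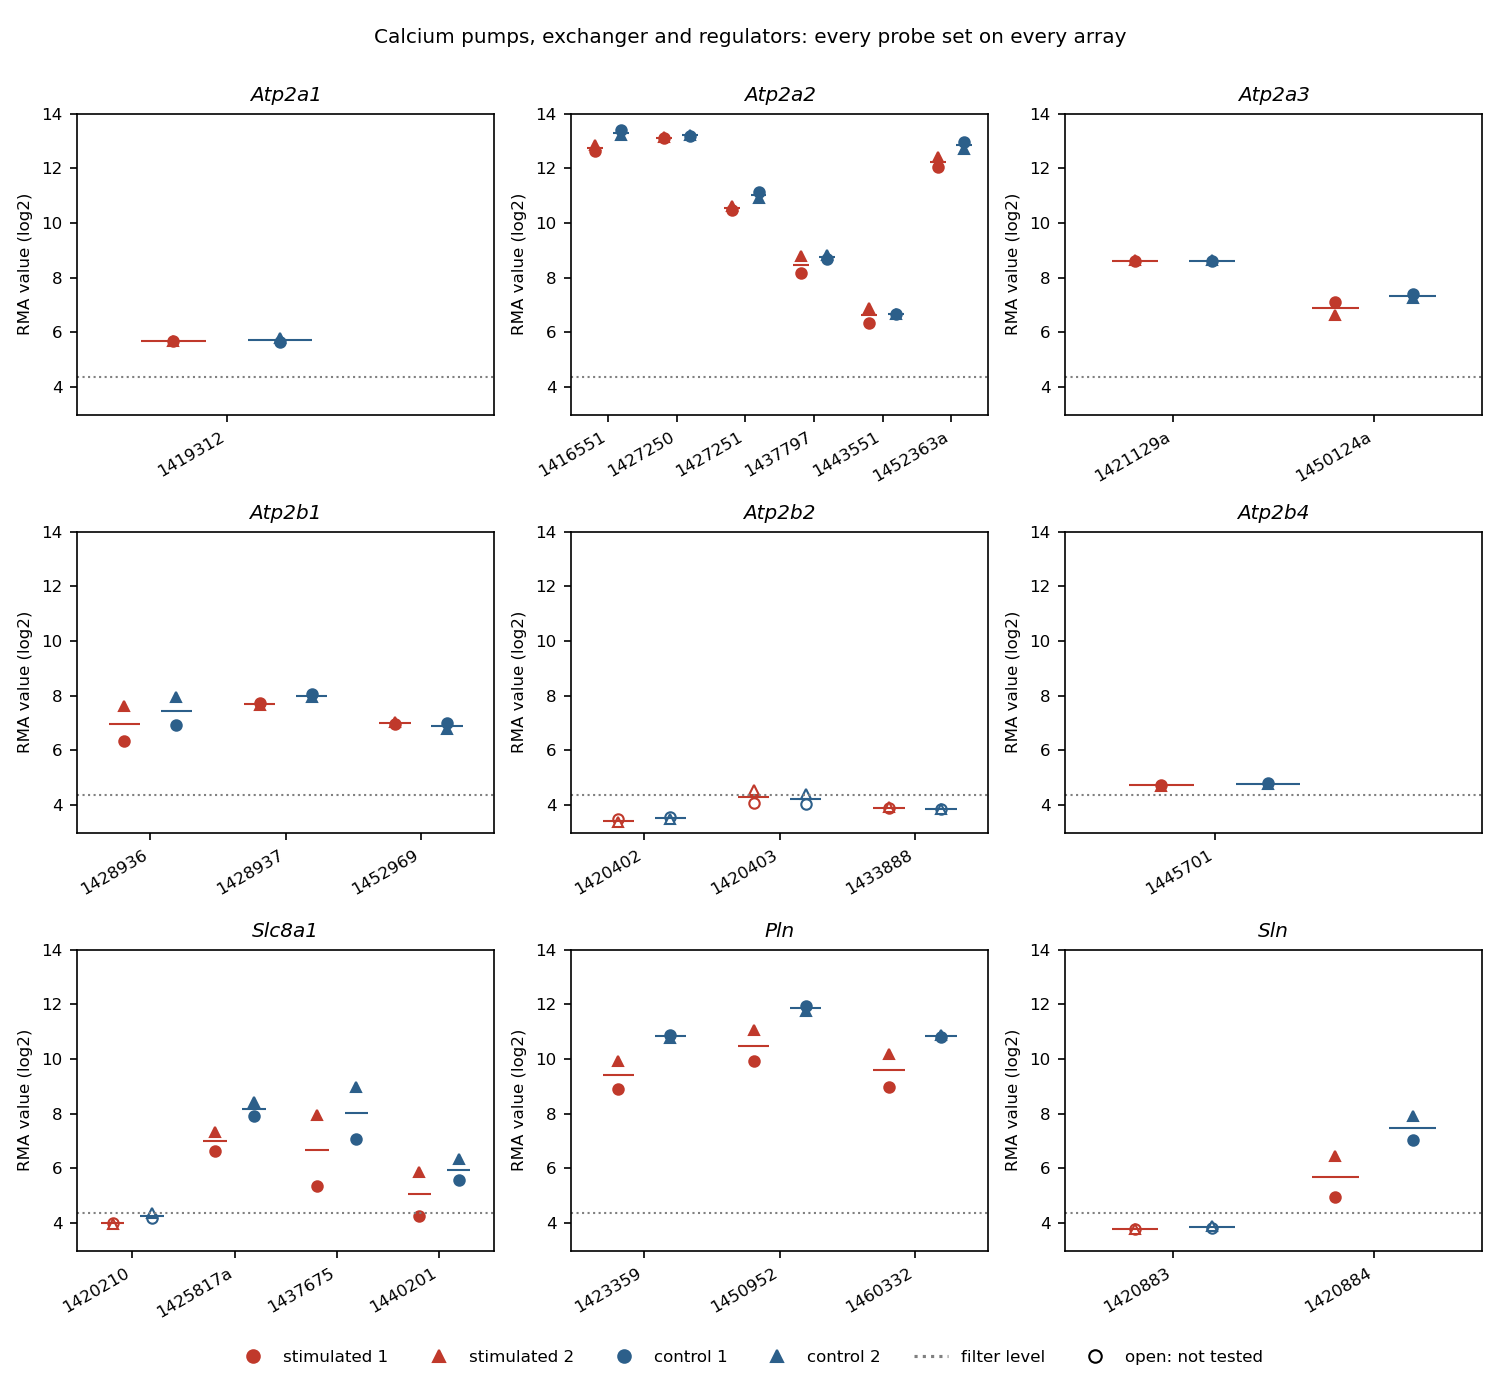
RMA value (log2, vertical axis) of every member probe set (horizontal axis, probe set number) in stimulated (red, left of each pair) and control (blue) cells, with circles for array 1, triangles for array 2, a short line for the group mean and open symbols for probe sets not tested. The Pln probe sets and 1420884 of Sln lie lower on both stimulated arrays, while the Slc8a1 probe sets 1437675 and 1440201 overlap between groups.

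The exchanger gene Slc8a1 had 3 tested probe sets, which disagreed in how well the groups separated. Probe set 1425817_a_at read 6.65 and 7.34 on the stimulated arrays and 7.90 and 8.45 on the control arrays, a difference of -1.18 ± 0.28 (interval -1.87 to -0.49, adjusted p = 0.0765). Probe set 1437675_at read 5.37 and 7.97 on the stimulated arrays and 7.09 and 8.96 on the controls, and its difference of -1.36 ± 0.93 had an interval of -3.64 to 0.92 (adjusted p = 0.44). On 1440201_at the stimulated arrays read 4.28 and 5.85 and the controls 5.57 and 6.35, a difference of -0.89 ± 0.52 (interval -2.17 to 0.39, adjusted p = 0.364). Groups were apart on the first and overlapped on the other two, where stimulated 2 exceeded control 1. Array 2 of each group read higher than array 1 on all 3 probe sets. Probe set 1420210_at lay below the filter, at 4.02 and 3.96 on the stimulated arrays and 4.19 and 4.36 on the controls.

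Leaving out stimulated 1 moved the difference of 1437675_at to -0.062 and that of 1440201_at to -0.10, and leaving out stimulated 2 moved them to -2.66 and -1.68. The same probe sets changed to -0.43 and -0.50 without control 2, and to -2.29 and -1.28 without control 1. For 1425817_a_at the differences were -0.83 to -1.53 over the 4 fits. None of these passed. The array order was seen also in a fibroblast gene, Col1a1, at 5.49 and 7.14 in stimulated cells and 5.51 and 7.55 in controls. It was not particular to fibroblast genes. The tested smooth muscle genes Acta2, Tagln and Cnn1 also read higher on array 2 in each group. So did the skeletal muscle genes Ckm, Tnni2 and Mylpf, the atrial muscle genes Myh6 and Actc1 and the ventricular gene Myl2. The summed level of the smooth muscle list did so too. Other markers, among them Kdr, Lyz2 and the skeletal muscle gene Myog, read lower on array 2 in each group. How many of all probe sets showed either order was not counted. The 6 fibroblast markers together had a summed level (log2 of the sum) of 7.18 and 7.90 in stimulated cells and 7.23 and 8.20 in controls. The order of that sum came from Col1a1: without it, a choice made after its values were seen, the other 5 summed to 6.64 and 6.62 in stimulated cells and 6.71 and 6.72 in controls. Of the 6, 2 defining collagen genes, Col1a2 and Col3a1, lay below the filter, and 0 of the 4 tested passed. The part of these markers in the Slc8a1 readings was not tested.

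**Figure D2:**
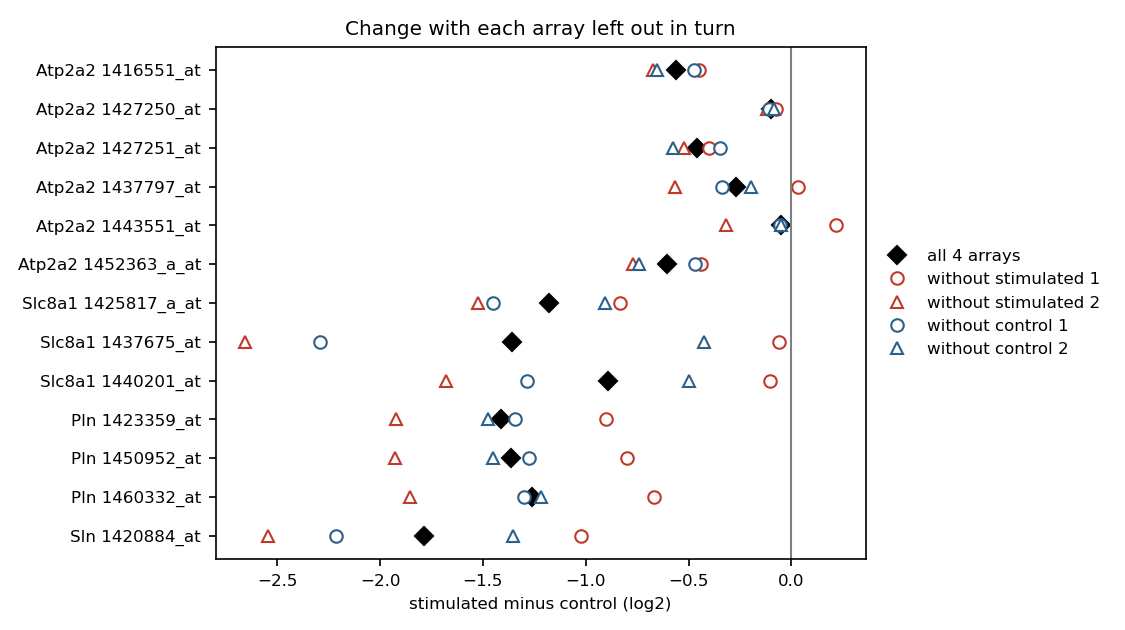
Difference between stimulated and control cells (log2, horizontal axis) for every tested probe set of Atp2a2, Slc8a1, Pln and Sln with all 4 arrays (diamond) and with each array left out (open circles and triangles). Atp2a2 1437797_at and 1443551_at cross 0 without stimulated 1, the other probe sets stay below 0, and for Pln, Sln and Slc8a1 the ends of each row are the fits without 1 of the stimulated arrays, from -0.062 without stimulated 1 to -2.66 without stimulated 2 for Slc8a1 probe set 1437675_at.

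Atp2a2 encodes SERCA2, the calcium pump of the cardiac sarcoplasmic reticulum, and had 6 probe sets, all tested. On 1416551_at the stimulated arrays read 12.63 and 12.85 and the controls 13.39 and 13.21, a difference of -0.56 ± 0.15 (interval -0.93 to -0.20, adjusted p = 0.0928). Probe set 1452363_a_at read 12.06 and 12.40 on the stimulated arrays against 12.97 and 12.70 on the controls, a difference of -0.60 ± 0.17 (adjusted p = 0.11). Values on 1427251_at were 10.49 and 10.61 in stimulated cells and 11.13 and 10.90 in control cells, which differed by -0.46 ± 0.14 (adjusted p = 0.128). On these 3 both stimulated arrays lay below both controls, at 1.38- to 1.52-fold lower in stimulated cells. With an intensity trend in the variance model 1416551_at passed (adjusted p = 0.0448), where 1.83% of all probe sets fell.

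The remaining Atp2a2 probe sets showed smaller differences. The brightest, 1427250_at, read 13.09 and 13.13 on the stimulated arrays and 13.20 and 13.22 on the controls, a difference of -0.10 ± 0.12 (interval -0.40 to 0.21, adjusted p = 0.705). These groups did not overlap either, but lay 0.065 apart, and the highest value in the whole table was 14.29. Probe set 1437797_at read 8.18 and 8.78 in stimulated cells and 8.68 and 8.82 in control cells (-0.27 ± 0.22, adjusted p = 0.518), and 1443551_at read 6.36 and 6.90 in stimulated cells and 6.68 and 6.68 in control cells (-0.05 ± 0.20, adjusted p = 0.918). On both of these the groups overlapped, and without stimulated 1 the differences were 0.032 and 0.22. The annotation does not say which transcript form of Atp2a2 each probe set measures.

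Atp2a1 encodes SERCA1, the pump of fast skeletal muscle. Its probe set 1419312_at read 5.70 and 5.70 in stimulated cells and 5.65 and 5.81 in control cells, a difference of -0.028 ± 0.13 (interval -0.35 to 0.30, adjusted p = 0.936). Stimulated readings lay between those of the controls. Atp2a3 encodes SERCA3, known mainly from blood, endothelial and epithelial cells. On 1421129_a_at it read 8.60 and 8.64 in stimulated cells and 8.60 and 8.64 in control cells, with an interval of -0.30 to 0.30. On 1450124_a_at it read 7.11 and 6.65 in stimulated cells and 7.41 and 7.25 in controls, a difference of -0.45 ± 0.19 (interval -0.91 to 0.01, adjusted p = 0.217). The groups overlapped on the first and not on the second, and both were designed on 1 sequence record.

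Of the plasma membrane pumps, Atp2b1 encodes PMCA1, the form most widely expressed among tissues. Its probe set 1428937_at read 7.73 and 7.68 in stimulated cells and 8.06 and 7.95 in control cells, a difference of -0.30 ± 0.13 (interval -0.61 to 0.01, adjusted p = 0.224). On 1428936_at the readings were 6.33 and 7.62 in stimulated cells and 6.92 and 7.95 in control cells (-0.46 ± 0.49, adjusted p = 0.639), with array 2 above array 1 in each group. On 1452969_at they were 6.96 and 7.05 in stimulated cells and 6.99 and 6.79 in control cells, a difference of 0.11 ± 0.14 (adjusted p = 0.687) and the only positive estimate among the tested member probe sets. Groups did not overlap on the first and overlapped on the others, and all 3 were designed on 1 record.

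Atp2b4, which encodes PMCA4, read 4.75 and 4.70 in stimulated cells and 4.80 and 4.76 in control cells on its only probe set, 1445701_at. The difference was -0.053 ± 0.12 (interval -0.36 to 0.25, adjusted p = 0.854), and all 4 readings lay close to the filter level. Atp2b2 encodes PMCA2, a pump known from nerve and hair cells, and all 3 of its probe sets lay below the filter. The highest of them, 1420403_at, read 4.09 and 4.54 in stimulated cells and 4.05 and 4.40 in control cells. The others, 1420402_at and 1433888_at, stayed between 3.37 and 3.93 on all 4 arrays. With the filter removed, none of the 5 member probe sets below it passed.

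**Figure D3:**
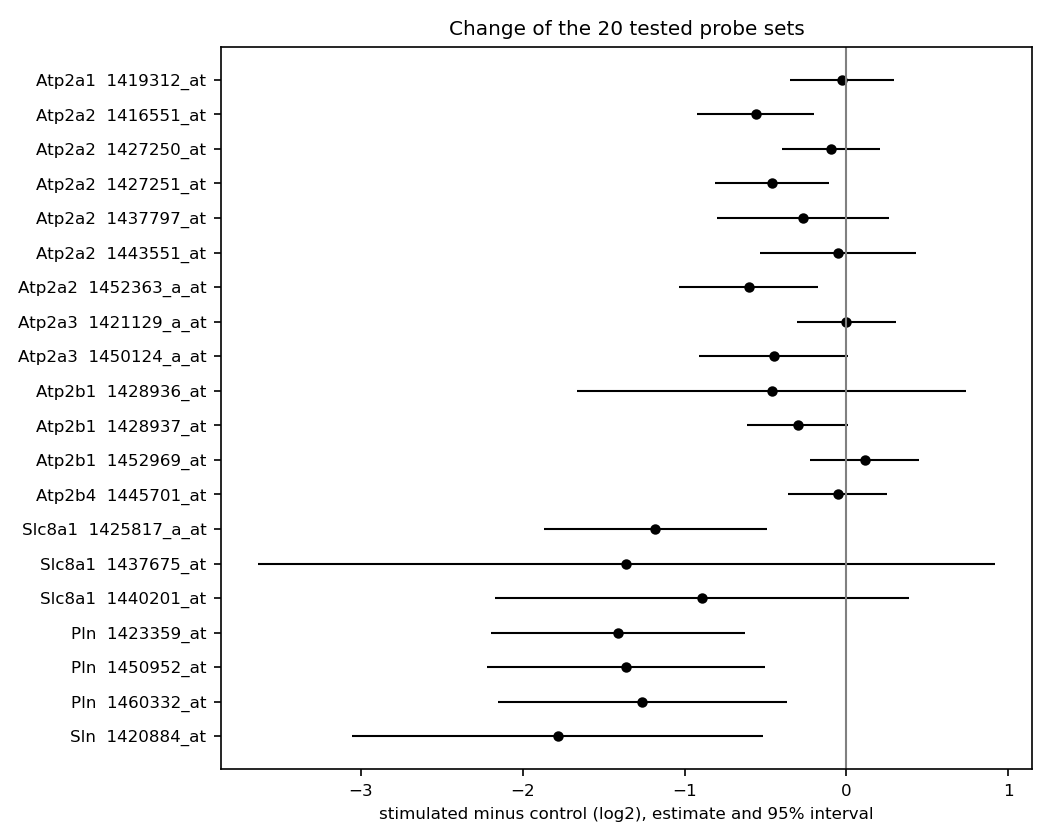
Difference between stimulated and control cells (log2, horizontal axis) with its 95% interval for the 20 tested probe sets of 8 genes. Estimates for Pln, Sln and Slc8a1 lie between -0.89 and -1.78, those of the pump genes between -0.60 and 0.11.

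Over the 20 tested probe sets 19 had an estimate below 0, against 53.2% of all probe sets tested, and their median was -0.46 against -0.019 for all. On 12 of them both stimulated arrays lay below both controls, a pattern that 28.8% of all probe sets tested showed, and on 0 both lay above, against 25.3%. At an unadjusted p under 0.05 there were 8 of 20, which were the 3 of Pln, 1 of Sln, 1 of Slc8a1 and 3 of Atp2a2, against a background of 23.9%. Many of these probe sets share a gene, so the counts are not of independent features. Stimulated 1 gave the lowest of the 4 readings on 15 of the 20, and on 25.9% of all probe sets tested.

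With 1 probe set per gene, the brightest, 0 of the 8 genes tested passed, against a background of 5.53% of 13058 genes, and 3 had an unadjusted p under 0.05, against 25.6%. These were Slc8a1 (adjusted p = 0.0675), Pln (adjusted p = 0.0778) and Sln (adjusted p = 0.1). All 8 estimates were below 0, with a median of -0.20 against -0.0056 for all genes tested. The gene-level difference of Atp2a2 was the -0.10 of its brightest probe set and so did not carry the larger differences of the others.

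Within each array the readings of the inhibitors were also set against that of Atp2a2, each on its brightest probe set. For Atp2a2 this was 1427250_at, which differed by -0.10, while its other probe sets differed by -0.05 to -0.60. The size of the ratios therefore depends on which Atp2a2 probe set is used, and ratios against each of the others alone were not taken. The difference Pln minus Atp2a2 was -3.17 and -2.08 on the stimulated arrays and -1.26 and -1.46 on the control arrays, which makes the ratio 2.41-fold lower in stimulated cells. For Sln minus Atp2a2 the values were -8.15 and -6.67 on the stimulated arrays and -6.14 and -5.31 on the controls, a 3.22-fold lower ratio. Neither pair of groups overlapped, and the exact permutation test gave p = 0.333 for each (two-sided), the smallest that 2 against 2 arrays allow. Without stimulated 1 the change of the log2 ratio was -0.72 for Pln and -0.95 for Sln, and without stimulated 2 it was -1.81 and -2.43. Only the change of these ratios can be read, not their level, since probe sets differ in brightness. With the mean of all probe sets of a gene the ratios were 2.01-fold and 1.51-fold lower in stimulated cells.

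Other genes of calcium transport were taken from 7 lists with 64 genes, of which 52 had a probe set of their own symbol alone, and for 49 the brightest such probe set was tested. Of these 1 rose and 2 fell, against 3.91% and 1.62% of all genes tested, and their median difference was -0.15. None of these calls held with any 1 of the 4 arrays left out, in fits where few of all probe sets passed. With the probe sets of a gene averaged Hax1 alone passed. In the list of regulators of the reticulum pump and phospholamban (17 tested, 1 up and 0 down, median -0.11), Hax1, whose product binds phospholamban, rose by 0.62 ± 0.12. It read 12.22 and 12.20 on the stimulated arrays and 11.61 and 11.57 on the controls (adjusted p = 0.0442), and its second probe set differed by 0.63. The names of these Hax1 and Prkaca probe sets carry the maker's mark for probes that may bind other transcripts. Pde4d, a phosphodiesterase that breaks down cyclic AMP, read 5.67 and 6.21 in stimulated cells against 7.03 and 6.82 in controls (-0.98 ± 0.20, adjusted p = 0.0514). Prkaca, a catalytic subunit of protein kinase A, which phosphorylates phospholamban, read 8.87 and 8.90 in stimulated cells and 9.52 and 9.40 in controls (-0.58 ± 0.12, adjusted p = 0.0541). A further Prkaca probe set gave -0.59.

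In the list of calcium store and release genes (10 tested, 0 up and 2 down, median -0.55) the release channel gene Ryr2 read 8.77 and 8.91 on the stimulated arrays and 9.52 and 9.85 on the controls and fell by 0.85 ± 0.16 (adjusted p = 0.0419), with -0.68 on a second probe set. Trdn, whose product triadin anchors calsequestrin at the release channel, read 7.97 and 8.30 on the stimulated arrays and 9.45 and 9.06 on the controls and fell by 1.12 ± 0.19 (adjusted p = 0.0355). Asph differed by -0.57 ± 0.13 (adjusted p = 0.0623) and Fkbp1b, a protein that binds the release channel, by -0.54 ± 0.14 (adjusted p = 0.0754). Both stimulated arrays lay below both controls for 7 of the 10, against 27.7% of all genes tested. Over all 7 lists this held for 23 of the 49 genes tested.

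Partners of the plasma membrane pump and the exchanger (4 tested, 0 called, median -0.44) included Fxyd1, phospholemman, a regulator of the sodium pump and the exchanger, at 9.47 and 10.14 in stimulated cells against 10.86 and 10.67 in controls (-0.96 ± 0.23, adjusted p = 0.0712). Bsg, basigin, a subunit of the plasma membrane pump, differed by -0.55 ± 0.15 (adjusted p = 0.0951). Among paralogs of the pumps and exchanger (7 tested, 0 called, median -0.17) the smallest p-values were those of Slc24a3 at -0.41 ± 0.22 (adjusted p = 0.312) and Slc8a3 at -0.18 ± 0.13 (adjusted p = 0.46). Mrln, myoregulin, the only one of the 4 listed pump-binding micropeptides tested, differed by -0.018 ± 0.16 (adjusted p = 0.962).

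Genes of mitochondrial calcium uptake (4 tested, 0 called, median -0.24) were mixed in direction. Mcu, the pore of the uniporter, read 7.72 and 7.57 in stimulated cells against 7.16 and 6.99 in controls (0.57 ± 0.14, adjusted p = 0.0661). A further Mcu probe set gave 0.23. Its regulator Micu2 differed by -0.31 ± 0.12 (adjusted p = 0.19). Store-operated entry genes (6 tested, 0 called, median 0.04) lay close to control, with the smallest p-values for Stim2 at 0.15 ± 0.12 (adjusted p = 0.504) and Orai2 at 0.15 ± 0.17 (adjusted p = 0.633).

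**Figure D4:**
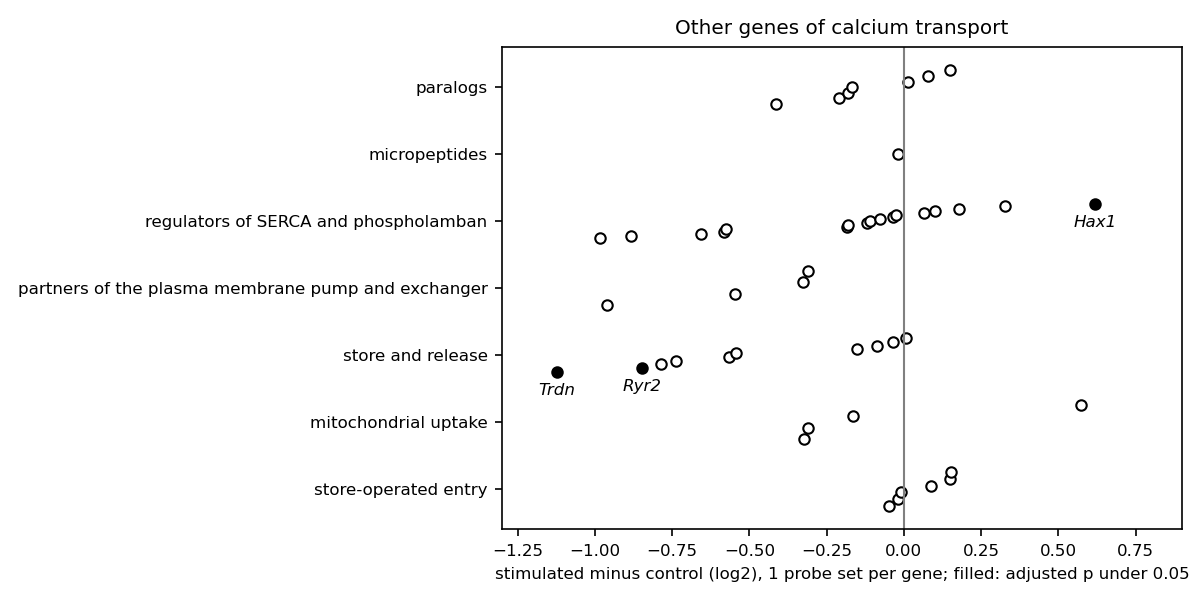
Difference between stimulated and control cells (log2, horizontal axis) for the 49 tested genes of 7 other calcium transport lists (vertical axis), 1 probe set per gene, filled where the gene passed the test. Hax1 lies at 0.62, Ryr2 at -0.85 and Trdn at -1.12.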

How the data were processed

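HL-1 cells gave 4 arrays, 2 stimulated and 2 control. The deposited values were log2 expression values, made with RMA per the submitters' processing notes, which subtracts background, brings the arrays to 1 distribution by quantile normalization and fits a value per probe set. Its version is not given in the sources used here. The array medians were 4.95 to 5.01, and the number of arrays limits the precision.

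Of 45101 probe sets 64 were the manufacturer's controls. The annotation gave 34945 of the others 1 symbol, and gene identifiers of all 9 members matched RefSeq (GRCm38.p6). Probe sets whose mean reached the 40th percentile (4.39) were tested in R 4.3.3 with lmFit and eBayes of limma 3.58.1, and two-sided p-values were adjusted by the Benjamini-Hochberg method over 27022 probe sets, at a threshold of 0.05. A second fit took 1 probe set per gene, the brightest (13058 genes). Levels of different probe sets were compared to pick the brightest of a gene and to describe the marker genes. They were also averaged within a gene, set against Atp2a2 within arrays, and summed over marker lists, where bright probe sets weigh most. The fit was run on simulated data with independent spread at each probe set, which does not test shifts shared by the probe sets of an array.

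Members and lists, among them 8 marker lists, were chosen with earlier results of these data known. Named in the text are all members and, from each list of other calcium genes, those called and the 2 others with the smallest p. Alternatives were other filters, centring, an intensity trend, each array left out, a replicate block and the mean of all probe sets.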

Additional observations from a re-analysis of the deposited data

How the results depend on the processing

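The estimates of Pln, Sln, Slc8a1 and of Atp2a2 1416551_at, 1427250_at, 1427251_at and 1452363_a_at stayed below 0 in every fit run. So did those of Atp2a3 1450124_a_at, Atp2b1 1428937_at and Atp2b4, and of Atp2b2 1420402_at, which lay below the filter. All probe sets called numbered 1039, and 807 to 1480 with the other filters, centring and the trend, but only 7 to 114 with 1 array left out. Member probe sets called numbered 0 with either other filter and with centring, 1 with the intensity trend (Atp2a2 1416551_at), and 0 to 3 with 1 array left out, the 3 being those of Pln without stimulated 2. By gene they numbered 0 to 1 with 1 array left out, and 0 when all probe sets of a gene were averaged. The 60th percentile filter left out Atp2a1, Atp2b4 and Slc8a1 1440201_at. Other calcium genes called numbered 3, and 6 with the 60th percentile filter, 5 with the trend, 1 when probe sets were averaged (Hax1) and 0 in each fit with 1 array left out. Sln minus Atp2a2 changed by -1.69, and by -0.59 with the mean of all probe sets, which includes the Sln probe set near the bottom of the scale.

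Some of the other estimates changed sign, and not all of these lay near 0. With no array left out Atp2a2 1437797_at was -0.27 and Atp2b1 1428936_at was -0.46. Atp2a3 1421129_a_at was -0.00017, 0.013 with centred arrays and -0.022 to 0.022 with 1 array left out. With 1 array left out Atp2a1 ranged from -0.11 to 0.054, Atp2a2 1437797_at from -0.57 to 0.032, Atp2a2 1443551_at from -0.32 to 0.22 and Atp2b1 1428936_at from -1.10 to 0.18.

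With a replicate block, which ties stimulated 1 to control 1 and stimulated 2 to control 2, 2040 probe sets passed in all, of which 847 fell (3.13% of those tested). Among the members 3 passed, Sln 1420884_at (adjusted p = 0.0243) and Slc8a1 1425817_a_at and 1437675_at (adjusted p = 0.0236 and 0.0323), and by gene 2, Slc8a1 and Sln, where 3.74% of all genes fell. Other calcium genes called numbered 10 of 49 with the block, of which 2 rose and 8 fell. Of all probe sets 1193 rose with the block, and the share of all genes that rose was not taken. The difference between array 1 and array 2 correlated at r = 0.31 across probe sets between the groups, and the protocol of control 2 speaks of an experimental sample 2. No label says that a number marks a shared run, and with 2 pairs the correlation does not settle it, so whether the arrays are paired is not known.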
